A study of Mus musculus with 34 samples.

Results

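The levels of 7 noncoding RNAs that work in RNA processing or in nuclear bodies were followed across 5 cell lines with and without hormone: the RNase P RNA Rpph1 and its relative Rprl3, the RNase MRP RNA Rmrp, the U3 small nucleolar RNA Rnu3a, the ribosomal precursor Rn45s, and the long noncoding RNAs Malat1 and Neat1. They are 7 of the 25124 transcripts in each of 5 deposited tables, taken by their symbol. They were selected on their levels and on their changes with hormone in these same libraries. The levels and changes below are therefore descriptions, with no test. All 7 passed the filter on low values in every line.

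The series is about the assembly of multimers by the glucocorticoid receptor (GR), which binds hormone and then acts as a transcription factor. Total RNA was sequenced from mouse C127 cells, which the labels call an adenocarcinoma line, with the endogenous GR knocked out in every group (GRKO) and a GFP-tagged mouse GR put in its place. The receptor was WT, P631A, W718E, P643A or the double substitution W718S/Y722S, and each line received vehicle or 100 nM dexamethasone (Dex), a synthetic glucocorticoid, for 2 h after 24 h in medium with 10% charcoal-stripped serum. The 10 groups held 34 libraries, 5 in each group of W718S/Y722S and 3 in each of the others. The labels name neither the promoter that drives the receptor nor the clone behind a line, so the effect of a substitution cannot be told apart from other traits of its line. Nor do they say that replicates were separate cultures, so spreads and p-values describe these libraries and may be technical.

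As background, RNase P is the ribonucleoprotein that cuts the leader off precursor transfer RNAs, and its RNA subunit is the catalyst. RNase MRP is its nucleolar cousin, shares most of its protein subunits and cuts the precursor of ribosomal RNA. Both RNAs are made by RNA polymerase III from promoters that lie upstream of the start, built around factors such as the octamer-binding protein Pou2f1. U3 is a box C/D small nucleolar RNA that base-pairs with the ribosomal precursor and is needed for its early cuts, and Rn45s stands for that precursor, the product of RNA polymerase I. Malat1 and Neat1 are nuclear RNAs of RNA polymerase II. Malat1 gathers in nuclear speckles, where splicing factors are stored, and Neat1 is the scaffold of paraspeckles, bodies that hold RNA-binding proteins.

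In mm10 coordinates as the files give them, Rpph1 lies on the minus strand of chromosome 14 from 50807447 to 50807771, Rprl3 on the minus strand of chromosome 8 from 3803125 to 3803361 and Rmrp on the minus strand of chromosome 4 from 43492785 to 43493059. Rpph1 and Rprl3 are shown first because reads of one could be counted for the other if their sequences were alike. Both are transcript sequences from GENCODE vM21, 319 and 290 bases long, of which the first 300 bases of Rpph1 and all of Rprl3 are written 5′ to 3′ in the sense of the RNA, and capitals mark the longest run of bases that the RNAs share exactly, positions 109 to 145 of both. The bases shown are the minus strand of chr14:50807468-50807767 for Rpph1 and of chr8:3803069-3803358 for Rprl3 in mm10. Their 5′ ends differ slightly from those in the files. At its 3′ end Rprl3 as shown runs on past the counted transcript, which ends at 3803125 and is 236 bases long.

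Rpph1: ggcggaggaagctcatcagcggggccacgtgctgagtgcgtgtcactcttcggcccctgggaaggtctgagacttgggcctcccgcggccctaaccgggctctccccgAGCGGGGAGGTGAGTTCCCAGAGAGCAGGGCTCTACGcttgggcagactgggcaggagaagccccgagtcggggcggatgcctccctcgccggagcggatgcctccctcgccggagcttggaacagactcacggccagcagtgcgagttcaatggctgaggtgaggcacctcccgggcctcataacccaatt

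Rprl3: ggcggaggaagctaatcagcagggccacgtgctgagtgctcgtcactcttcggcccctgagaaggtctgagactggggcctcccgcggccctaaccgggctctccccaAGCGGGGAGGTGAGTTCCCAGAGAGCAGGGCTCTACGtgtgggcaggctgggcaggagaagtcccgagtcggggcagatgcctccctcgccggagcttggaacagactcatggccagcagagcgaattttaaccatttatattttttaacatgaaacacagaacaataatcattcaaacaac

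The shared run is 37 bases long. A global alignment of the whole GENCODE sequences placed 246 identical bases in 330 columns, an identity of 74.5%. That value takes in the bases of Rprl3 past the counted transcript, and the identity over the counted part alone was not computed. Of the 241 words of 50 bases in Rprl3, 0 occur in Rpph1. No stretch of 50 bases is thus common to both RNAs. The Rprl3 sequence shares 7 of its 241 words with Rprl2, another copy, to which it is 92.1% identical. Rprl2 had group means of 0.283 to 2.84 normalised counts and the copy Rprl1 had none in 9 of 10 groups, against 1.74 to 5.26 k in vehicle for Rprl3. Rmrp aligned to Rpph1 with 48.9% identity and a longest shared run of 9 bases.

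The next windows show the space upstream of Rpph1 and of Rmrp, because each gene starts next to a protein-coding gene on the other strand. They are the RefSeq promoter windows of Parp2 and Ccdc107 on GRCm38.p6, 300 bases each, written 5′ to 3′ on the minus strand, the strand of Rpph1 and Rmrp, with the octamer ATTTGCAT or its reverse complement ATGCAAAT in capitals. The window between Rpph1 and Parp2 is chr14:50807666-50807965 and runs from 194 bases upstream of the Rpph1 start to 105 bases inside the gene. The window between Rmrp and Ccdc107 is chr4:43493115-43493414 and covers the bases from 355 to 56 upstream of the Rmrp start, so the bases next to that start are not in it.

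Rpph1 and Parp2: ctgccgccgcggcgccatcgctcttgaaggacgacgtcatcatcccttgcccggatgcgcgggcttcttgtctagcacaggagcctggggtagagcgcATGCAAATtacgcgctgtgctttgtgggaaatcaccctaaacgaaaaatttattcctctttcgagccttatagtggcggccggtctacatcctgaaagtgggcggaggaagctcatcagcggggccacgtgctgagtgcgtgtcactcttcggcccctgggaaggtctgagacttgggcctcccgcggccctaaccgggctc

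Rmrp and Ccdc107: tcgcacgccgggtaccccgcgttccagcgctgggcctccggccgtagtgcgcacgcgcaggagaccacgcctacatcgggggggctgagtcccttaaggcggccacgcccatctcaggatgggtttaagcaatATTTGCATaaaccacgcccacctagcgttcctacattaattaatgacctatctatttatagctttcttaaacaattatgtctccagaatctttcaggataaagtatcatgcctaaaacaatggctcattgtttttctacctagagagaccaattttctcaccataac

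The octamer stood 89 to 96 bases upstream of the Rpph1 start, on the opposite strand, and 215 to 222 bases upstream of the Rmrp start, on the same strand. On either strand it occurred in 570 of 32851 promoter windows of that length (1.74%). A match is a run of letters and not a measured site of binding. Parp2, which encodes a poly(ADP-ribose) polymerase, and Ccdc107 were not called for Dex in any line by limma on the deposited values (lowest adjusted p over both genes and 5 lines, 0.743). Both neighbours were chosen after their values were seen.

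Libraries held 24.0 to 43.1 M total reads, of which 16.5 to 31.5 M were counted in exons, a share of 68.6 to 76.0%. Levels are normalised counts, written with k for kilo and M for mega: reads recovered from the deposited log2 values, divided by the size factor of the library within the table of its line. The labels do not state whether ribosomal RNA was removed. Rn45s held 9.95 to 11.3% of exon counts in the WT libraries and 13.8 to 18.3% in those of the 4 mutant lines, and the 7 RNAs together held 16.0 to 20.6%. Per1, Sgk1 and Tsc22d3, known GR targets, were called for Dex in all 5 lines and Fkbp5 in 4. Epithelial markers were low (line means of 0 to 0.518 counts for Epcam and 21.3 to 41.0 for Krt8). The mesenchymal markers Vim, Col1a2 and Pdgfrb had 64053 to 85969, 35615.2 to 81289.5 and 2855.9 to 6351.9, but Col1a1 only 93.4 to 243.6. The immune markers Ptprc, Cd3e and Cd68 had 1.28 to 2.15, 0 to 0.36 and 117 to 244, and the endothelial markers Pecam1 and Cdh5 1.87 to 3.92 and 59.96 to 262. Nr3c1, the gene of GR, had line means of 5142 to 7255, in which the introduced receptor and the disrupted endogenous gene are not separated. Libraries did not all stand equally apart. In 4 replicate pairs the counts differed by a chi-square of 1.30 to 1.48 per gene, against 2.02 to 12.5 in the other 40, where counting noise alone gives about 1. These pairs were Dex replicates 2 and 3 of WT and, in W718S/Y722S, vehicle replicates 2 and 3, Dex replicates 2 and 3 and Dex replicates 4 and 5. The W718S/Y722S libraries also fell into a class with an exon share of 68.6 to 69.3% (vehicle replicates 2 and 3, Dex replicates 4 and 5) and one of 72.4 to 74.6% (the other 6).

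In abundance the 7 RNAs spanned a wide range. By level in vehicle, Rn45s ranked first and Malat1 second among all transcripts in every line, Neat1 between 4 and 17, Rpph1 between 6 and 14 and Rmrp between 18 and 45. Rprl3 ranked between 742 and 2582 and Rnu3a between 10035 and 11754, with 19 to 519 reads in a library, so the word abundant does not hold for Rnu3a. Per kilobase of transcript, the order changed: Rn45s was first and Rpph1 second in every line, Rmrp lay between 3 and 5, Malat1 between 3 and 9, Rprl3 between 26 and 105 and Neat1 between 77 and 466. In WT vehicle this scale gave 189926 normalised counts per kilobase for Rpph1 and 189914 for Malat1. In the 4 mutant lines Rpph1 stood higher than Malat1 on this scale, at 170746 to 320797 against 47755 to 59840.4.

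**Figure D1:**
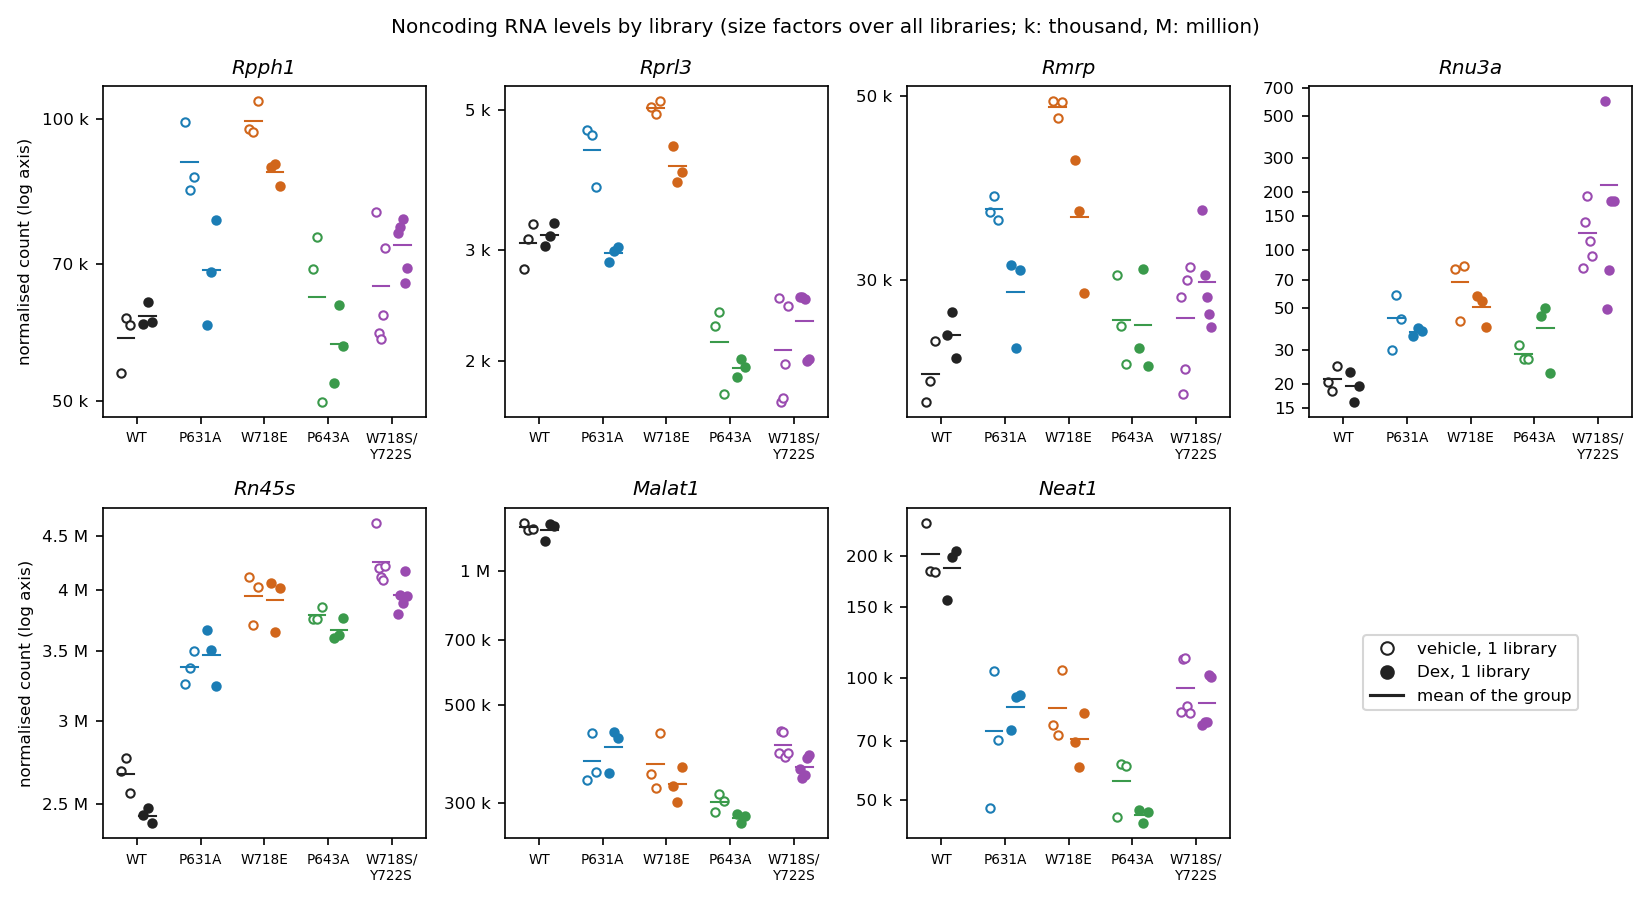
Normalised counts of the 7 RNAs in each of the 34 libraries (log axis, all libraries on common size factors), by line, with open points for vehicle, filled points for Dex and a line at the group mean. The WT libraries of Malat1 and Neat1 sit above those of every mutant line, and Rnu3a scatters most.

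The RNase P and MRP RNAs were lower with Dex in P631A and W718E, with no overlap between groups, and overlapped in the other lines. Rpph1 in P631A had 111, 94.3 and 96.7 k normalised counts with vehicle and 67.5, 76.7 and 87.1 k with Dex, means of 100.6 ± 8.92 and 77.1 ± 9.80 k (SD, n = 3). Every Dex library lay below every vehicle library, at a log2 change of -0.39 ± 0.13 (SE from the pooled SD of both groups). In W718E, Rpph1 had 102, 101 and 109 k with vehicle and 92.9, 93.6 and 88.4 k with Dex, again without overlap, at a log2 change of -0.18 ± 0.04. WT had 56.7, 64.5 and 63.4 k with vehicle and 64.4, 67.2 and 64.2 k with Dex, where vehicle replicate 2 lay above Dex replicates 1 and 3 (log2 change 0.09 ± 0.06). P643A vehicle libraries of Rpph1 ranged from 55.3 to 82.9 k (76.6, 82.9 and 55.3 k), wider than the 58.1, 70.2 and 63.6 k with Dex, and the log2 change was -0.15 ± 0.20. In W718S/Y722S the 5 vehicle libraries held 66.3, 49.4, 48.7, 51.4 and 60.8 k and the 5 Dex libraries 63.0, 64.1, 65.2, 56.0 and 58.1 k. Vehicle replicate 1 was the highest of these 10 libraries, while vehicle replicates 2, 3 and 4 lay below every Dex library (log2 change 0.16 ± 0.10).

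Rprl3, annotated as an RNase P RNA-like transcript, followed Rpph1. Its counts in P631A were 5185, 5113 and 4210 with vehicle and 3219, 3340 and 3394 with Dex, a gap between groups wider than the spread of the Dex libraries (log2 change -0.54 ± 0.10). In W718E they were 5261, 5130 and 5391 with vehicle and 4575, 4016 and 4159 with Dex (log2 change -0.31 ± 0.06). The other 3 lines overlapped. WT had 2969, 3292 and 3477 with vehicle and 3246, 3325 and 3498 with Dex (log2 change 0.05 ± 0.07). P643A had 2525, 2655 and 1966 with vehicle and 2100.5, 2242 and 2176 with Dex (log2 change -0.12 ± 0.14). W718S/Y722S had 2097, 1443, 1465, 1650.1 and 2045 with vehicle and 2107, 2113, 2091, 1673 and 1688 with Dex, where the vehicle libraries spread over a range that took in most Dex libraries (log2 change 0.16 ± 0.14).

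Rmrp was lower without overlap in the same lines, P631A and W718E. In P631A it had 40.4, 42.5 and 39.5 k with vehicle and 35.0, 27.8 and 34.5 k with Dex, means of 40.8 ± 1.55 and 32.4 ± 4.04 k and a log2 change of -0.34 ± 0.11. In W718E it had 51.4, 49.1 and 51.3 k with vehicle and 43.7, 38.0 and 30.2 k with Dex, means of 50.6 ± 1.32 and 37.3 ± 6.80 k and a log2 change of -0.46 ± 0.16. The Dex libraries of W718E spread about as widely as their distance from vehicle, with replicate 3 the lowest. WT had 22.7, 23.9 and 26.7 k with vehicle and 27.4, 28.9 and 25.5 k with Dex, where Dex replicate 3 fell inside the vehicle range (log2 change 0.16 ± 0.09). P643A had 33.7, 29.3 and 26.3 k with vehicle and 27.6, 34.4 and 26.2 k with Dex, which interleaved (log2 change -0.02 ± 0.16). W718S/Y722S had 23.8, 18.2, 19.6, 25.0 and 25.9 k with vehicle and 30.4, 25.4, 23.9, 22.8 and 22.03 k with Dex (log2 change 0.15 ± 0.13).

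Counted over the 7 RNAs, groups that did not overlap numbered 3 with Dex lower in P631A and 3 in W718E, namely Rpph1, Rprl3 and Rmrp in both, where 5.36% and 5.93% of all tested genes had Dex lower without overlap. The count was 1 in WT (Rn45s, against 10.0% of genes), 1 in P643A (Malat1, against 9.45%) and 0 in W718S/Y722S (against 3.05%). None of the 7 had Dex higher without overlap, where the share of genes that did was 11.3% in WT and 9.87% in P643A, 5.70% and 5.79% in P631A and W718E, and 3.22% in W718S/Y722S. The members were chosen with these changes known, so nothing is read from the counts. With any single library left out, the Rpph1 change ran from -0.48 to -0.30 in P631A and from -0.20 to -0.15 in W718E. In the same order, Rprl3 ran from -0.63 to -0.48 and from -0.36 to -0.27, and Rmrp from -0.40 to -0.23 and from -0.58 to -0.31. The sign of these changes could not turn, because the groups do not overlap. The deposited values shrink changes toward 0: on them Rpph1 in W718E was -0.12, and Rprl3 was -0.31 in P631A and -0.18 in W718E.

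**Figure D2:**
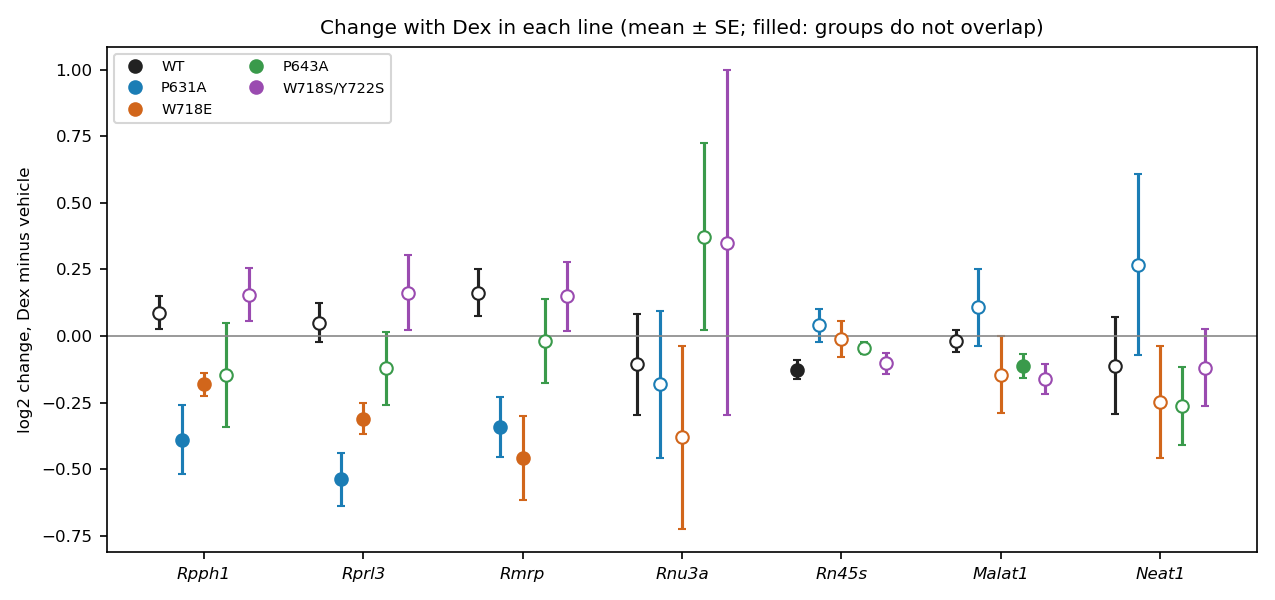
Log2 change with Dex of each RNA in each line (points, recovered counts, pseudocount 1) with the SE from the pooled SD (bars). Filled points mark groups that do not overlap; they are Rpph1, Rprl3 and Rmrp in P631A and W718E, Rn45s in WT and Malat1 in P643A, all below 0.

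A ratio of 2 RNAs within a library needs no size factor. Rprl3 to Rpph1 in vehicle was 0.0527 in WT, 0.0480 in P631A and 0.0506 in W718E, and lower in P643A (0.0335) and W718S/Y722S (0.0313). With Dex it stayed within the vehicle range or overlapped it in 4 lines and was lower without overlap in W718E, at 0.0429 to 0.0493 against 0.0494 to 0.0517. Rmrp to Rpph1 in vehicle was 0.487 in W718E and 0.396 to 0.419 in the other lines, and the Dex and vehicle libraries overlapped in all 5 lines. Of the Rmrp ratios, W718E had the highest in vehicle and the lowest with Dex (0.402), with 1 Dex library just inside the vehicle range.

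Rn45s, the ribosomal precursor row on the plus strand of chromosome 17 from 39842997 to 39848829, stands for many near-identical gene copies that cannot be told apart. Reads of mature ribosomal RNA, which is cut from the precursor, may be counted in this row, so its counts do not measure the precursor alone. In WT it had 2.85, 2.91 and 2.695 M normalised counts with vehicle and 2.60, 2.61 and 2.53 M with Dex, lower in every Dex library (log2 change -0.13 ± 0.04). The other 4 lines overlapped. In P631A it had 3.62, 3.78 and 3.898 M with vehicle and 4.11, 3.92 and 3.61 M with Dex (log2 change 0.04 ± 0.06). W718E had 4.28, 3.86 and 4.20 M and then 4.24, 3.81 and 4.19 M (log2 change -0.01 ± 0.07). P643A had 4.15, 4.16 and 4.27 M and then 4.01, 4.02 and 4.18 M, where only Dex replicate 3 reached the vehicle range (log2 change -0.04 ± 0.02). W718S/Y722S had 3.86, 3.51, 3.45, 3.40 and 3.52 M with vehicle and 3.16, 3.31, 3.24, 3.49 and 3.31 M with Dex, with Dex replicate 4 alone inside the vehicle range (log2 change -0.10 ± 0.04).

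Rnu3a, the U3 RNA on the plus strand of chromosome 10 from 40258468 to 40258679, is the thinnest of the 7 and its changes are not separable from its spread. WT had 21.6, 19.4 and 26.1 normalised counts with vehicle and 24.7, 17.1 and 20.7 with Dex. P631A had 33.7, 65.6 and 48.6 and then 39.9, 43.5 and 42.1. W718E had 82.9, 44.3 and 85.8 and then 59.9, 56.8 and 41.5. In each of these lines the libraries interleaved, with log2 changes of -0.11 ± 0.19, -0.18 ± 0.28 and -0.38 ± 0.35. P643A had 35.6, 29.9 and 30.0 with vehicle and 50.5, 55.0 and 25.5 with Dex (log2 change 0.37 ± 0.35). W718S/Y722S had 66.7, 116, 160.5, 92.6 and 77.8 with vehicle and 497, 41.0, 65.6, 150.02 and 151 with Dex, so a mean of 181 ± 183 rests on Dex replicate 1. Without that library the log2 change turned from 0.35 to -0.14. The Rnu3b genes, other copies of U3 in the reference, were 85.2% identical to Rnu3a and shared 1 word of 50 bases with it.

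Malat1, the nuclear speckle RNA on the minus strand of chromosome 19 from 5795690 to 5802672, was far higher in WT than in any mutant line. It had 1.36, 1.30 and 1.31 M with vehicle and 1.24, 1.35 and 1.34 M with Dex in WT (log2 change -0.02 ± 0.04). P631A had 377, 483 and 393 k with vehicle and 393, 485 and 470.3 k with Dex, which interleaved (log2 change 0.11 ± 0.15). W718E had 363, 338 and 449 k and then 343, 315 and 377 k, with an SE about as large as the change (log2 change -0.15 ± 0.14). P643A was the line whose groups did not overlap, with 317, 348 and 335 k with vehicle and 315, 299.8 and 311 k with Dex. The log2 change there was -0.11 ± 0.05, and the nearest vehicle and Dex libraries, 317 and 315 k, nearly met. W718S/Y722S had 324, 364, 363, 316 and 325 k with vehicle and 298, 286, 289.7, 318 and 321 k with Dex, where Dex replicates 4 and 5 lay inside the vehicle range (log2 change -0.16 ± 0.06).

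Neat1, the paraspeckle scaffold, lies on the same strand and chromosome from 5824710 to 5845478, and its row covers the long isoform together with the short one inside it. WT had 256, 193 and 193 k with vehicle and 166, 209 and 217 k with Dex, with vehicle replicate 1 the highest (log2 change -0.11 ± 0.18). P631A had 53.3, 117 and 78.5 k and then 83.6, 100.4 and 102 k, so its vehicle libraries spanned more than its Dex libraries did (log2 change 0.27 ± 0.34). W718E had 79.8, 75.4 and 109 k and then 72.7, 63.3 and 85.8 k (log2 change -0.25 ± 0.21). In P643A, 50.3, 68.1 and 67.3 k stood against 52.8, 48.8 and 52.0 k, where vehicle replicate 1 lay among the Dex libraries (log2 change -0.26 ± 0.15). W718S/Y722S had 68.6, 93.3, 94.0, 71.2 and 68.4 k with vehicle and 63.9, 65.1, 65.0, 85.4 and 84.4 k with Dex (log2 change -0.12 ± 0.14). Frmd8, a protein-coding neighbour of Neat1 chosen after its values were seen, was not called in any line.

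Malat1 and Neat1 in W718S/Y722S were also compared within the classes of exon share. In the 6 libraries with a share above 70%, Malat1 ran from 316 to 325 k with vehicle and from 286 to 298 k with Dex, and Neat1 from 68.4 to 71.2 k and from 63.9 to 65.1 k. In the 4 libraries below 70%, Malat1 was 363 to 364 k with vehicle and 318 to 321 k with Dex, and Neat1 93.3 to 94.0 and 84.4 to 85.4 k. Within each class both RNAs were thus lower with Dex without overlap, at log2 changes of -0.14 and -0.19 for Malat1 and -0.10 and -0.14 for Neat1, above and below 70% in turn. The lower class holds 2 close pairs of replicates, so it gives little more than 1 library a group. Rpph1, Rprl3 and Rmrp had Dex above vehicle in both classes, by 0.11 and 0.22, 0.13 and 0.21, and 0.08 and 0.25 on the log2 scale, without overlap only below 70%. Rn45s was lower without overlap above 70% (log2 change -0.15) and overlapped below it (-0.03). These classes were set after the data were seen. The share of all genes without overlap was not counted within them, so nothing is read from the separation. Over both classes together, the groups of all 7 RNAs overlapped in this line.

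Between lines, vehicle levels were set side by side on size factors made over all libraries, since each table was normalised on its own. WT and mutant tables were processed separately and every WT library comes from one line, so table, line and receptor cannot be told apart here. Malat1 was 1256 ± 25.3 k in WT, and it was 406 ± 27.0 k in W718S/Y722S, 374 ± 49.8 k in P631A, 367 ± 55.8 k in W718E and 301 ± 14.3 k in P643A, so the mutant lines stood at 24.0 to 32.3% of WT. The order of the levels below WT was W718S/Y722S, P631A, W718E, P643A, and lines next to each other in it differed by less than the sum of their SDs. Neat1 was 203 ± 33.9 k in WT and 74.1 ± 28.4, 84.6 ± 17.7, 55.9 ± 9.02 and 94.8 ± 15.8 k in P631A, W718E, P643A and W718S/Y722S, which is 27.5 to 46.8% of WT. On counts per M without Rn45s the shares of WT were 25.4 to 33.9% for Malat1 and 29.2 to 49.0% for Neat1. Malat1 to Rn45s within a library, which uses no scaling, was 0.471 in WT vehicle against 0.110, 0.0926, 0.0794 and 0.0954.

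Rn45s ran the other way, at 159% of WT in W718S/Y722S, 148% in W718E, 142% in P643A and 126% in P631A. Among the RNase P and MRP RNAs, P631A and W718E stood above WT for Rpph1 (154 and 171%), Rprl3 (141 and 164%) and Rmrp (158 and 209.9%). P643A and W718S/Y722S stood nearer to WT for Rpph1 (111 and 114%) and Rmrp (116 and 117%) and below it for Rprl3 (69.9 and 67.8%). On CPM without Rn45s, W718S/Y722S stood at 119% of WT for Rpph1 and 122% for Rmrp. P631A and W718E had the highest vehicle levels of Rpph1, Rprl3 and Rmrp. Only in these lines did the Dex groups of those RNAs lie lower without overlap. The same vehicle libraries enter the level and the change, so vehicle libraries that read high would also lower the change. The RNAs were also chosen with these changes known, so no link between level and change is read here.

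Among replicates of the same group, some members deviated together. For each pair, the log2 level minus the mean of its line and treatment was correlated, 21 pairs in all, with a two-sided permutation p within groups and Benjamini-Hochberg adjustment. The lead value is that over the 24 libraries without W718S/Y722S, whose libraries form classes. Malat1 and Neat1 had r = 0.86 (permutation p = 1e-05, the smallest that 100000 permutations can give, adjusted p = 0.00021) and rho = 0.89 over the 24 libraries, and r = 0.80 without the 2 libraries farthest out. The correlation within lines ran from 0.86 to 0.99, and r was 0.88 over all 34. Among the 6 W718S/Y722S libraries with an exon share above 70%, however, r was -0.86. Rpph1 and Rprl3 had r = 0.75 (permutation p = 0.00229, adjusted p = 0.0240) and rho = 0.70 over the 24, falling to 0.53 without the 2 farthest, and from 0.32 to 0.98 within lines. The 6 W718S/Y722S libraries gave 0.96 for this pair. These were the 2 of 21 pairs that passed over the 24 libraries.

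**Figure D3:**
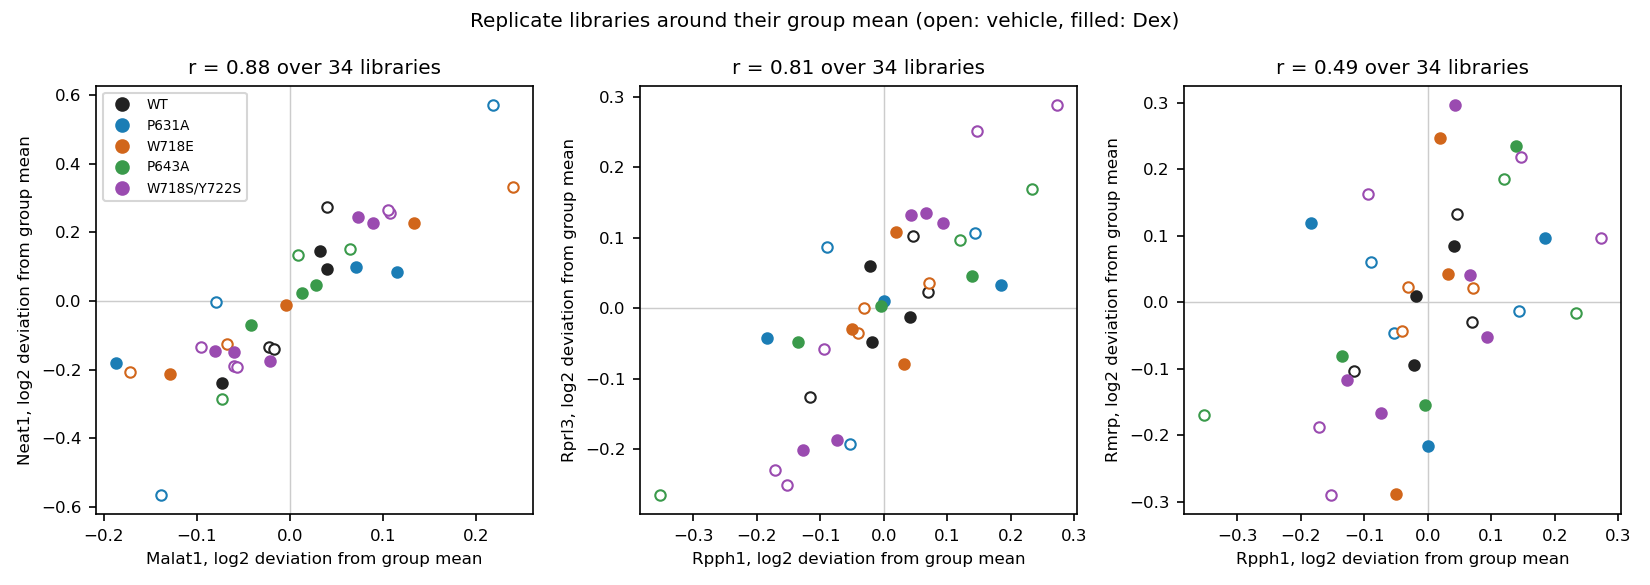
Deviation of each library from the mean of its line and treatment (log2) for Malat1 against Neat1, Rpph1 against Rprl3 and Rpph1 against Rmrp, coloured by line. Panel titles give r over all 34 libraries shown (0.88, 0.81 and 0.49). Points of the first 2 panels lie along a rising line (r = 0.86 and 0.75 over the 24 libraries without W718S/Y722S), and those of the third scatter more (r = 0.40 over the 24).

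Rprl3 and Rmrp passed only with W718S/Y722S, at r = 0.61 over 34 libraries (permutation p = 0.00291, adjusted p = 0.0161) against 0.44 over 24 (adjusted p = 0.265), and so did Rmrp and Neat1, at r = -0.47 (permutation p = 0.00306, adjusted p = 0.0161) against -0.28 (adjusted p = 0.402). Rpph1 and Rmrp, which share most protein subunits, had r = 0.49 over 34 libraries (adjusted p = 0.0753) and 0.40 over 24 (adjusted p = 0.402) and passed neither. Averaging the 4 close replicate pairs left 30 libraries, over which Malat1 with Neat1 (r = 0.87), Rpph1 with Rprl3 (0.81) and Rprl3 with Rmrp (0.58) passed and Rmrp with Neat1 did not (-0.42, adjusted p = 0.0613). The size factors of the libraries of a line were computed together, so its points are not fully independent.

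**Figure D4:**
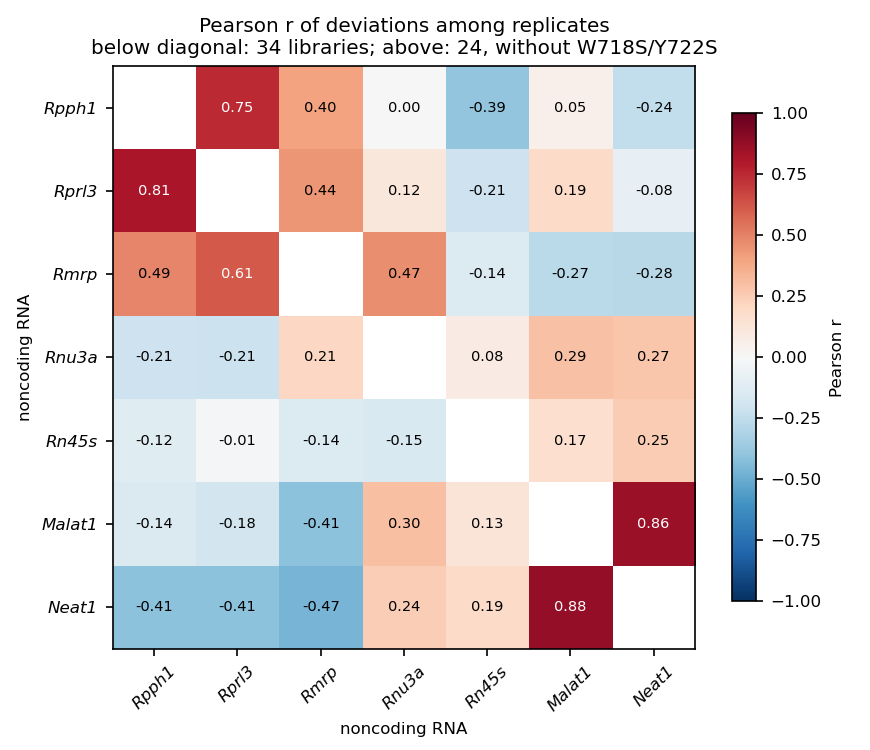
Pearson r of deviations from group means for each pair of the 7 RNAs, below the diagonal over 34 libraries and above it over the 24 without W718S/Y722S. Malat1 with Neat1 and Rpph1 with Rprl3 are the highest on both sides, and Rnu3a has no pair that passes.

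The share of reads that fell in exons moved with Malat1 and Neat1 in the mutant lines, a relation looked for after the data were seen. Within lines the r of Malat1 with the exon share was -0.90 in W718S/Y722S, -0.88 in P631A, -0.80 in W718E and -0.80 in P643A but 0.36 in WT, and that of Neat1 was -0.96, -0.97, -0.81, -0.63 and 0.07 in the same order. Over the 24 libraries without W718S/Y722S, Malat1 had r = -0.62 (permutation p = 0.0199, adjusted p = 0.134 over 7 relations) and rho = -0.57, with -0.64 without the 2 farthest libraries. Neat1 had r = -0.67 (permutation p = 0.0382, adjusted p = 0.134) and rho = -0.49, with -0.72 without the 2 farthest. None of the 7 relations passed the adjustment over these libraries. In the 6 W718S/Y722S libraries above 70% the r was 0.59 for Malat1 and -0.21 for Neat1, so the strong value in that line separates its classes. How far the exon share bears on the covariation of Malat1 and Neat1 was not tested.

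**Figure D5:**
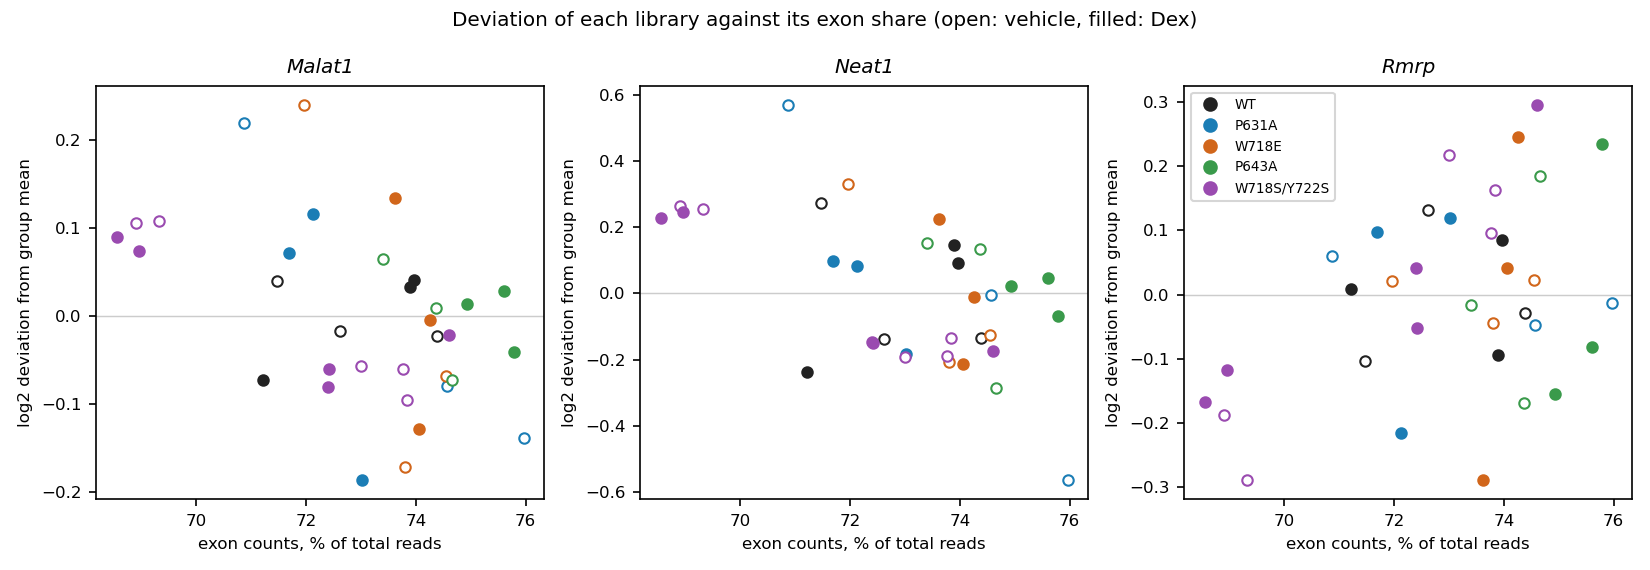
Deviation of Malat1, Neat1 and Rmrp from the group mean (log2) against the share of reads in exons (%), one point per library, coloured by line. The W718S/Y722S libraries below 70% stand apart at the left, with Malat1 and Neat1 high and Rmrp low.

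The genes most like each member were taken from 9920 genes over the 34 libraries, by Pearson r of log2 levels minus the mean of the line, as a description that also takes in the response to Dex. Rpph1 came closest to Rprl3 (r = 0.88), then Selenof (0.69), which encodes a selenoprotein of the endoplasmic reticulum, and Ggh (0.66), a folate hydrolase, with Rmrp at rank 5 (0.64). Rprl3 came closest to Rpph1, then Rmrp (0.75) and Atp5e (0.75), a subunit of the mitochondrial ATP synthase. Rmrp was most like the ribosomal protein genes Rps10 (0.78), Rps20 (0.77) and Rps4x (0.76). The 34 libraries take in the exon-share classes of W718S/Y722S. In that line Rmrp had r = 0.91 with the exon share, against 0.07 over the other 24 libraries. How far these classes bear on the likeness of any member was not tested. Malat1 came closest to Neat1 (0.87), then Mapk8ip3 (0.86) and Spaca6 (0.84), and Neat1 to Malat1, Spaca6 (0.86) and Luc7l3 (0.80), a splicing factor gene. Rn45s had Tmem259 (0.76), Nuak1 (0.73) and Tigar (0.72), and Rnu3a had A630001G21Rik (0.70), Eif4e2 (0.69), a cap-binding protein gene, and Gorab (0.66).

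Genes whose products work with these RNAs were tested for Dex, and few were called. Counts of tests are pooled over the lines, while the shares over all genes are given per line. Calls are by limma on the deposited values at an adjusted p under 0.05 over all genes, of which 6.70% passed in WT, 4.78% in P643A and 4.79% in W718S/Y722S but 0.221% in P631A and 0.524% in W718E, while levels and log2 changes are from recovered counts. Of 11 tested protein subunits of RNase P and RNase MRP, none passed in any line (0 of 55 tests, 5 at an unadjusted p under 0.05, and 0 on recovered counts). In P631A and W718E, where the RNAs of both enzymes were lower with Dex, the median log2 change of these subunits was 0.02 and -0.06, beside 0.00 over all genes tested. Of 25 U3 particle and box C/D proteins, 1 of 125 tests passed, for Bms1, a GTPase of the small ribosomal subunit, lower in P643A (1987 ± 11.8 to 1831 ± 46.5, adjusted p = 0.0355). That call ended on scaling without Rn45s (adjusted p = 0.0749). Of 17 RNA polymerase I genes, Cd3eap, which encodes a polymerase subunit, passed in P643A (1470.2 ± 34.8 to 1637 ± 38.4, adjusted p = 0.00625) and W718S/Y722S (1269 ± 70.9 to 1416 ± 51.5, adjusted p = 0.0225), higher in both, and these were the 2 of 85 tests that passed.

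Of 23 genes of RNA polymerase III and its upstream promoter factors, only the polymerase subunit gene Polr3e passed, in 2 of 115 tests. It rose in WT from 758 ± 11.4 to 896 ± 37.0 (log2 change 0.24 ± 0.04, adjusted p = 0.00121) and was higher in W718S/Y722S, from 925 ± 28.5 to 1005 ± 24.7 (log2 change 0.12 ± 0.03, adjusted p = 0.0498). The W718S/Y722S call ended on recovered counts (adjusted p = 0.0535) and on scaling without Rn45s (adjusted p = 0.0534). Of 24 paraspeckle proteins, 4 of 120 tests passed, of which 3 were in W718S/Y722S, where 4.79% of all tested genes passed. Taf15, an RNA-binding protein, was lower in P643A (4841 ± 260 to 4327 ± 114, adjusted p = 0.00183), and Rbm12 (1276 ± 68.9 to 1463 ± 81.8, adjusted p = 0.00995) and Rbm3 (5347 ± 143 to 5758 ± 159, adjusted p = 0.0376), both RNA-binding proteins, were higher in W718S/Y722S. Of 19 speckle proteins and Malat1 processing factors, 3 of 95 tests passed, for the splicing factors Srsf7, lower in WT (2217 ± 67.2 to 2052 ± 34.8, adjusted p = 0.0493), Srrm2, lower in P643A (21940 ± 976 to 19858 ± 897, adjusted p = 0.00337), and Srsf5, higher in W718S/Y722S (3443 ± 92.5 to 4009 ± 237, adjusted p = 0.00104).

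Other small structured RNAs, among them small nucleolar and Cajal body RNAs and the telomerase RNA Terc, gave 51 to 71 tested rows a line out of 128. Only Snora74a passed, a box H/ACA small nucleolar RNA, lower in W718E (290.1 ± 59.0 to 131 ± 41.7, log2 change -1.16 ± 0.19, adjusted p = 0.0181), in 1 of 324 tests. In W718E 58 of 71 tested rows had a negative log2 change, at a median of -0.23, where 50.5% of all tested genes were negative at a median of 0.00, and 17 rows were at an unadjusted p under 0.05. Negative changes numbered 23 of 51 in WT, 44 of 70 in P631A, 49 of 70 in P643A and 31 of 62 in W718S/Y722S. Medians in WT, P631A, P643A and W718S/Y722S were 0.01, -0.08, -0.11 and 0.00. Many of these rows lay near the filter on low values, with wide errors. Terc in W718E had 547 ± 67.4 with vehicle and 457 ± 49.8 with Dex (adjusted p = 0.747, or 0.0164 with a replicate block). These rows share introns with host genes in part, so reads of a host cannot always be told apart from those of the small RNA.

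Of 31 tested other long noncoding RNAs and small nucleolar RNA hosts, 6 of 155 tests passed. Tug1, a nuclear long noncoding RNA, rose in WT from 5490 ± 64.5 to 6504 ± 140 (log2 change 0.24 ± 0.03, adjusted p = 4.19e-06) and in W718S/Y722S from 3132 ± 127 to 3383 ± 66.3 (log2 change 0.11 ± 0.03, adjusted p = 0.0437). The imprinted antisense RNA Kcnq1ot1 (9981 ± 879 to 8551 ± 321, adjusted p = 0.000396) and Pvt1 (882 ± 96.3 to 737 ± 11.4, adjusted p = 0.00342), a transcript next to Myc, fell in P643A, Mir17hg, the host of a microRNA cluster, was lower in WT (adjusted p = 0.0272) and Snhg1, a small nucleolar RNA host, was higher in W718S/Y722S (adjusted p = 0.0153). Leaving out single libraries ended 12 of the 19 calls in these lists with at least 1 library gone. The 7 that held without any 1 library were Polr3e and Tug1 in WT, Taf15, Srrm2 and Kcnq1ot1 in P643A, and Rbm12 and Srsf5 in W718S/Y722S. Of the others, those named here reached adjusted p-values of 0.215 for Bms1, 0.0597 and 0.0802 for Cd3eap in P643A and W718S/Y722S, 0.131 for Polr3e and 0.109 for Rbm3 in W718S/Y722S, 0.264 for Srsf7 and 0.16 for Mir17hg in WT, 0.151 for Snora74a in W718E, 0.0519 for Pvt1 in P643A (without vehicle replicate 2), 0.0547 for Snhg1 (without vehicle replicate 5) and 0.122 for Tug1 in W718S/Y722S. Whether a call in one line and none in another marks a difference between lines was not tested.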

How the data were processed

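The submitters' processing notes name cutadapt for trimming, STAR 2.7.0f, HOMER 4.10.4 and the build mm10. Per the file headers, the authors counted exon reads without normalisation, reduced each gene to 1 transcript and then used HOMER's program for differential expression, with no strand option given, so overlapping antisense genes cannot be told apart. The deposited library columns are log2 values, normalised by the authors within each table by a transform that is not named. Each table also holds the authors' own log2 fold change with its p-value, raw and adjusted. These columns were used only to check the recovery of counts.

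Whole counts were recovered from the deposited log2 values by fitting the shrinkage of each table. Under a mean of 100, 99.994 to 100% of the fitted values came out whole to within 0.1, a check partly built into the fit. From a mean of 100 up, log2 ratios of group means lay within 0.0197 of the authors' deposited log2 fold changes. Levels, ratios, log2 changes (pseudocount 1) and correlations are from the recovered counts. The log2 changes are differences of mean log2 levels and can lie farther from the authors' values, as for Rnu3a in W718S/Y722S (0.35 against 0.82). Calls are from limma 3.58.1 (R 4.3.3, variance trend) on the deposited log2 values, within each line, over genes that reach 10 on the unlogged scale in enough libraries to fill the smaller group, at a Benjamini-Hochberg adjusted p under 0.05. The scripts were tested on simulated data. Correlations used Python 3.11.15, numpy 2.4.6 and scipy 1.17.1, with 100000 permutations.

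All 7 RNAs are named with every library. Of each list, the genes called in the most lines are named, with ties taken by the smallest p, up to 4 a list. Mir17hg, beyond that limit, was named after its values were seen, and 1 called gene of the paraspeckle list is counted but not reported here. Genes like a member are the 3 of highest r with a mean of at least 100 in every table. The members and the lists were chosen with earlier results of these data known. Samples were grouped by their labels. Alternatives were another scaling, no filter, a replicate block, each library left out, and those added after seeing the data. Groups share replicate numbers, but same-numbered libraries did not all deviate together in any line, so no pairing was used. Libraries held 16.5 to 31.5 M exon counts, and the precision is lowest for the rarest RNA, Rnu3a.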

Additional observations from a re-analysis of the deposited data

Results flagged for a closer look

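Single libraries were looked at in 14 groups of 5 libraries (the 7 RNAs in W718S/Y722S with vehicle and with Dex), and 2 held a library far from the others. Chance marks about 1 group in 20 in this way. Rnu3a in Dex replicate 1 of W718S/Y722S had 496.5 normalised counts, while the other 4 Dex libraries ran from 41.0 to 151. The same library stands apart from its replicates over all genes, with a chi-square per gene of 9.97 to 12.5. Rn45s in vehicle replicate 1 of W718S/Y722S had 3862700 normalised counts, while the other 4 vehicle libraries ran from 3.40 to 3.52 M.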

How the results depend on the processing

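Counts of genes called for Dex stayed within 1.5 times of those reported under recovered counts, scaling without Rn45s and no filter in all 5 lines. Scaling without Rn45s shifted the split of calls from 500 higher and 346 lower to 417 and 566 in WT, and from 331 and 271 to 521 and 203 in P643A. Replicate numbers did not pair the libraries in every line: in WT 2 of 6, in P631A 0 of 6 and in W718S/Y722S 2 of 10 libraries correlated best with their own number. In W718E and P643A 5 of 6 did, at r of 0.03 to 0.45 and 0.03 to 0.13 between same-numbered libraries. Whether libraries were paired in those lines cannot be told from these values. With a replicate block the calls went from 28 to 5 in P631A (10 on recovered counts) and from 66 to 288 in W718E (268 on recovered counts), and from 846 to 970 in WT, 602 to 666 in P643A and 596 to 469 in W718S/Y722S. The cause was not tested. Under the block, calls among other small structured RNAs in W718E went from 1 to 6, all lower, and the W718S/Y722S calls of Polr3e (0.116), Rbm3 (0.0741) and Tug1 (0.0791) ended. With each library left out in turn the count ran from 625 to 1236 in WT, 14 to 49 in P631A, 28 to 76 in W718E, 453 to 564 in P643A and 412 to 971 in W718S/Y722S. The libraries that moved it by over 1.5 times were, in P631A, vehicle replicates 2 (17 without it) and 3 (14) and Dex replicates 1 (49) and 2 (15), in W718E vehicle replicate 1 (28) and Dex replicate 1 (42), and in W718S/Y722S Dex replicate 1 (971). The count of correlated pairs of members went from 4 to 2 without W718S/Y722S, and was 3 with close replicate pairs averaged. Of the 35 changes with Dex, all stayed within 1 SD under CPM, and 3 moved on the deposited values. A replicate block cannot move these changes, since both groups of a line hold the same replicate numbers. Over 238 values with a library left out, 17 had another sign. In groups of 3 or 5, leaving out 1 library cannot move a change by 1 SD within groups, so that limit tells nothing here. Depth limits Rnu3a, with 19 to 519 reads a library.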
